A study of Mus musculus with 19 samples.

Results

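Of the 1299 CDR3 amino acid sequences that held 1000 or more reads in at least 1 of 3 infarcted mouse hearts, 353 were not listed in any of the 16 lymph node libraries of the same study. These 353 heart sequences, called node-absent below, were chosen by their summed reads in the heart and by their absence from the node lists, so both measures are given only as a description. The other 946, called node-listed, had the same read minimum in a heart and at least 2 reads, the lowest count that any library listed, in at least 1 node library. The 19 libraries together listed 1082330 distinct CDR3s. Because 3 node-listed CDR3s reached the minimum in a pair of hearts, there were 1302 entries of a heart and a CDR3, and 949 of these were node-listed.

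All libraries held T cell receptor beta (TRB) transcripts of CD4+ TCRbeta+ T cells sorted from BALB/c mice on day 7 after surgery or injection. The 3 heart libraries came from 5000 sorted cells each, taken from hearts infarcted by ligation of the left anterior descending coronary artery (myocardial infarction, MI). Node libraries came from 500000 sorted cells each. They were mediastinal nodes, which drain the heart, after MI (n = 3) or after sham surgery, a thoracotomy that left the artery open (n = 4), and axillary nodes after Titermax Gold adjuvant with porcine cardiac myosin (n = 2), with mouse heart extract (n = 3) or alone (n = 4). The labels name no transgene, deletion or age, and operated mice received buprenorphine for pain. They do not say whether a library came from 1 animal, nor whether a heart and the MI node of the same number came from the same mouse, and a p-value can therefore speak only of the spread among these samples. No heart without infarction is analysed here. Only TRB transcripts were amplified, so the labelled cell type could not be checked against marker genes. Heart libraries held from 2426715 to 5126910 reads and node libraries from 7534295 to 9235800. Distinct CDR3s per node library ran from 38437 in heart extract node 3 to 230684 in MI node 2, so the nodes were not equally likely to list a CDR3.

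The beta chain of the T cell receptor is assembled in the thymus from a variable (TRBV), a diversity (TRBD) and a joining (TRBJ) segment. The CDR3 spans the junction and is the part of the chain that lies closest to the bound peptide. Its ends are encoded by the TRBV and TRBJ segments, and its middle by the TRBD segment and by nucleotides that terminal deoxynucleotidyl transferase adds without a template. Junctions with few added nucleotides are assembled repeatedly and recur between individuals as so-called public sequences, whereas longer junctions recur seldom. The same clone can give many reads because it has many cells or because its cells hold much TRB RNA. Its segment may also be amplified well by the V-segment primers of the PCR. These cannot be told apart here.

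The largest node-absent clones are printed as the deposited lists give them, without the conserved cysteine at the start and phenylalanine at the end. They show the middle stretch on which most of the comparisons below turn. The 3 with most reads in each heart were:
Heart 1, TRBV19 and TRBJ2-3: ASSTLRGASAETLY
Heart 1, TRBV14 and TRBJ2-1: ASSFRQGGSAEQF
Heart 1, TRBV14 and TRBJ1-4: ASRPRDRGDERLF
Heart 2, TRBV14 and TRBJ2-1: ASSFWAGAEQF
Heart 2, TRBV14 and TRBJ1-4: AKPGHNERLF
Heart 2, TRBV14 and TRBJ1-1: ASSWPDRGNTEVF
Heart 3, TRBV19 and TRBJ2-4: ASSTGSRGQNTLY
Heart 3, TRBV19 and TRBJ1-4: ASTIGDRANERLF
Heart 3, TRBV14 and TRBJ2-4: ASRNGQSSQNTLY
The 3 shortest node-absent CDR3s, of 8 residues each, show the lower end of the junctions, and CDR3s of 15 or more residues are given by their segments and length:
Heart 1, TRBV13-2 and TRBJ1-4: ASGDSRLF
Heart 1, TRBV13-2 and TRBJ2-7: ASGEPEQY
Heart 3, TRBV29 and TRBJ2-3: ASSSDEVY
The most abundant node-listed CDR3 of each heart is shown beside them:
Heart 1, TRBV14 and TRBJ1-1: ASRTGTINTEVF
Heart 2, TRBV14 and TRBJ1-4: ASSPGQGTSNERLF
Heart 3, TRBV14 and TRBJ1-1: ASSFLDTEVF

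Node-absent CDR3s made up 31.9% of the CDR3s over the minimum in heart 1 (100 of 313, 95% Wilson interval 27.0% to 37.3%). They were 25.3% in heart 2 (111 of 439, 21.4% to 29.6%) and 25.8% in heart 3 (142 of 550, 22.3% to 29.6%). The 3 intervals overlapped. Node-absent CDR3s held 26.3%, 23.0% and 20.6% of the reads of hearts 1, 2 and 3, and node-listed CDR3s held 71.1%, 74.9% and 77.2%. CDR3s under the minimum held the rest, since the CDR3s over it together took 97.4%, 97.9% and 97.8% of the reads. Reads are PCR products without molecular identifiers, so these intervals and those below cover counting error only.

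The read minimum did not mean the same number of cells in each heart. Reads per sorted cell were 485 in heart 1, 880 in heart 2 and 1025 in heart 3, so that 1000 reads corresponded to 2.06, 1.14 and 0.975 cells if reads followed cells. Just inside the minimum stood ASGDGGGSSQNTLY, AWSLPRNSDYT and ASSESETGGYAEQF in heart 1 (1027, 1037 and 1098 reads), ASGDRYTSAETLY, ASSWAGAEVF and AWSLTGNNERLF in heart 2 (1023, 1088 and 1122), and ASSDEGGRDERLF, GARDRVNTQY and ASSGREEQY in heart 3 (1006, 1062 and 1159). Just outside it, and also in no node, stood SSRQGSISYEQY, a CDR3 with TRBV20 and TRBJ1-1, and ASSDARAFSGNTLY in heart 1 (996, 968 and 841), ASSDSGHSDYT, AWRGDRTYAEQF and a CDR3 with TRBV20 and TRBJ2-5 in heart 2 (997, 973 and 876), and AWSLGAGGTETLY, a CDR3 of 16 residues with TRBV29 and TRBJ2-4, and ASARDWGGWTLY in heart 3 (929, 828 and 823). The node side of the rule had a similarly fine edge. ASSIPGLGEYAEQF, with TRBV19 and TRBJ2-1, had 39441 reads in heart 1 and was node-listed through 2 reads in a single node library, and 4, 4 and 9 node-listed CDR3s of hearts 1, 2 and 3 rested on 2 node reads in this way.

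Some of the largest clones of the hearts were node-absent. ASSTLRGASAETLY ranked 2 by reads in heart 1, with 60282 reads or 2.48% of the library. In heart 2, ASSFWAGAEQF ranked 3 with 113196 reads (2.57%), AKPGHNERLF ranked 4 with 104532 (2.38%) and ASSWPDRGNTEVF ranked 5 with 87767 (1.99%). Heart 3 had no node-absent CDR3 before rank 25, which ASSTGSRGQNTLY held with 31798 reads (0.620%). If reads followed cells, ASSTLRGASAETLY would stand for 124 of the 5000 sorted cells of heart 1, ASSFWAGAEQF for 129 of those of heart 2 and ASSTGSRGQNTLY for 31.0 of those of heart 3. The 100 largest clones of a heart held 24, 16 and 22 node-absent CDR3s.

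Further large node-absent clones of heart 1 were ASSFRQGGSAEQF (44610 reads), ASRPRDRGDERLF (38125), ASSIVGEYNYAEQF (37785, TRBV19 and TRBJ2-1) and a CDR3 of 15 residues with TRBV19 and TRBJ1-4 (27683). Heart 2 also held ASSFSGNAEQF (45584, TRBV14 and TRBJ2-1) and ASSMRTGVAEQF (40488, TRBV19 and TRBJ2-1). Heart 3 held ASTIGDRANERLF (31737), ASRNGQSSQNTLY (30825), TCRGTGGSERLF (24999, TRBV1 and TRBJ1-4) and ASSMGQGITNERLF (23453, TRBV19 and TRBJ1-4). Of these 15 CDR3s, the 5 largest of each heart, all but TCRGTGGSERLF used TRBV14 or TRBV19. The most abundant node-listed clones, in hearts 1, 2 and 3, were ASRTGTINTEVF (68148 reads), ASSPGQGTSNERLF (145259) and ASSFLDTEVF (171644). They had 242, 1086 and 7037 reads in the MI node of the same number, and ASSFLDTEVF was also in 2 other nodes at the lowest count.

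Typical clone sizes of the classes lay close together. The median node-absent CDR3 had 3347, 4006 and 4798 reads in hearts 1, 2 and 3, and the median node-listed CDR3 had 4520, 5036.5 and 4374.5. Node-absent medians were thus lower in hearts 1 and 2 and higher in heart 3. In the upper range, 14%, 20.7% and 23.9% of node-absent CDR3s had 10000 or more reads (14, 23 and 34 CDR3s), against 21.6%, 31.1% and 26.5% of node-listed CDR3s (46, 102 and 108). These shares were lower among node-absent CDR3s in each heart. Seen from the reads, the node-absent share lay between 22.7% and 39.2% among clones of 1000 to under 2000 reads, between 26.7% and 33.6% from there to under 5000, between 27.1% and 29.7% from there to under 10000, and between 18.4% and 23.9% at 10000 or more. Reads and listing chose the classes, so no test was made.

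**Figure D1:**
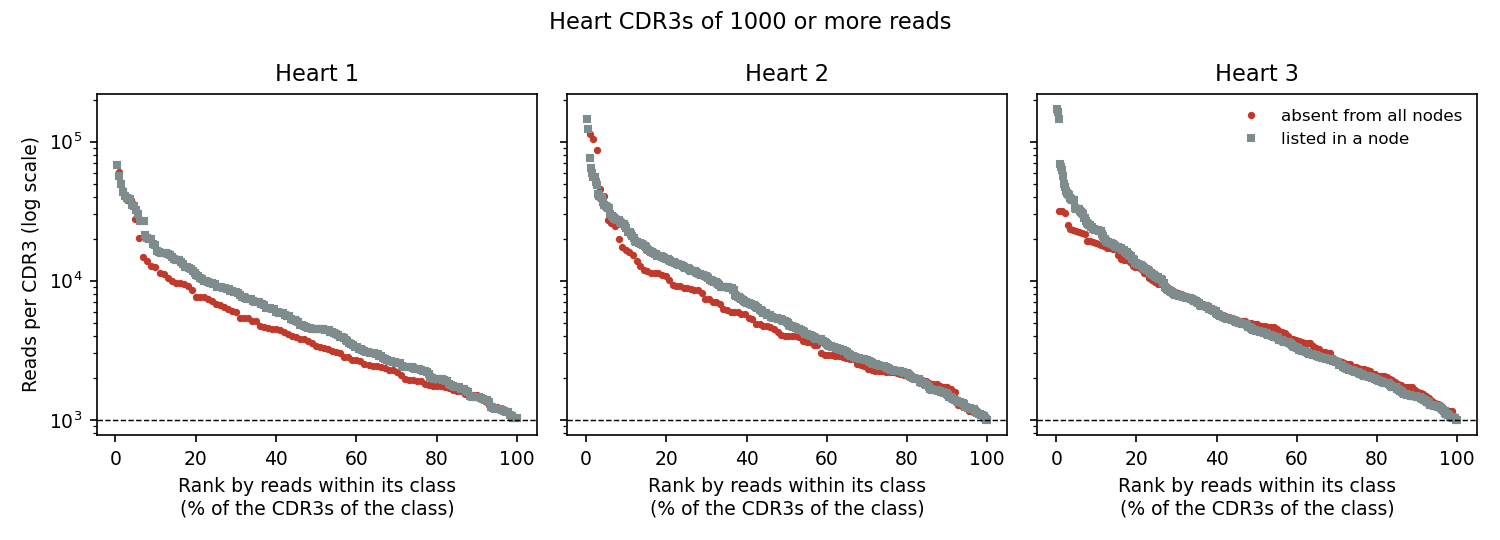
Reads per CDR3 on a log scale against rank within its class, as a percentage of the CDR3s of the class, for each heart. Red circles are node-absent and grey squares node-listed CDR3s, and the dashed line marks the minimum of 1000 reads. The node-absent curve runs below the node-listed one over much of hearts 1 and 2, and in heart 3 the curves lie together except at the largest clones, where the highest node-absent clone has 31798 reads and the highest node-listed one 171644.

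Node-absent CDR3s were private to a heart almost without exception. Of the 353, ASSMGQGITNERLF alone was listed in more than 1 heart, with 23453 reads in heart 3 and 3 reads in heart 2, and 0 reached the minimum in a pair of hearts. Of the 946 node-listed CDR3s, 14 were listed in more than 1 heart and 3 reached the minimum in a pair of them. These were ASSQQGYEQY (21381 reads in heart 1 and 3842 in heart 2), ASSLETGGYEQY (14304 and 10555) and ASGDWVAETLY (2000 in heart 2 and 7242 in heart 3), named after their values were seen. No CDR3 of either class was in 3 hearts.

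CDR3 length was not used to choose the classes, and node-absent CDR3s were longer on average in every heart. Node-absent CDR3s averaged 12.83, 12.66 and 12.61 residues in hearts 1, 2 and 3, and node-listed CDR3s 11.98, 11.95 and 11.77. The lowest node-absent mean stood above the highest node-listed mean. The mean difference was 0.801 ± 0.0764 residues (SD, n = 3 hearts), higher in 3 of 3 hearts. The exact two-sided test over 8 sign flips gave p 0.25, the smallest that 3 hearts allow. The median was 13 residues for node-absent and 12 for node-listed CDR3s in each heart.

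Long CDR3s made up more of the node-absent class, and CDR3s of 11 or 12 residues less. Node-absent CDR3s had 15 or more residues in 7, 11 and 14 cases in hearts 1, 2 and 3, or 8.92% ± 1.67 (SD, n = 3), against 1, 5 and 4 node-listed cases, or 0.991% ± 0.528. At 14 residues the shares were 20.3% ± 8.86 of node-absent and 7.45% ± 1.15 of node-listed CDR3s, and at 13 residues 32.4% ± 7.21 and 23.5% ± 0.646. The order turned at 12 residues, with 20.3% ± 3.18 of node-absent and 33.7% ± 4.17 of node-listed CDR3s, and at 11 residues, with 8.29% ± 3.95 and 20.1% ± 2.01. At 10 or fewer residues the shares were 9.72% ± 1.75 and 14.3% ± 3.83, and the hearts' values overlapped.

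These 6 length classes were tested with edgeR's quasi-likelihood test on the number of distinct CDR3s per class, with the heart as a block, a test added after the data were seen. It called 4 of 6 classes, 66.7%, after Benjamini-Hochberg adjustment at 0.05. The length classes divide the same total of CDR3s, so a higher share in some lowers the share in others. The 4 calls are therefore not separate results. CDR3s of 15 or more residues were more frequent among node-absent CDR3s (log2 fold change 3.08, SE 0.357, adjusted p 1.04e-05), as were those of 14 (1.39, SE 0.479, adjusted p 0.0217). CDR3s of 12 residues (-0.70, SE 0.228) and of 11 residues (-1.21, SE 0.425) were less frequent, both at an edgeR adjusted p of 0.0217. The class of 13 residues (0.45, adjusted p 0.0873) and that of 10 or fewer (-0.58, adjusted p 0.254) did not pass in edgeR. With heart 1 left out, edgeR called 1 class, and with heart 2 left out 2 classes, while the longest class passed whichever heart was left out (adjusted p 0.00912, 5.85e-04 and 0.0286 without hearts 1, 2 and 3).

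**Figure D2:**
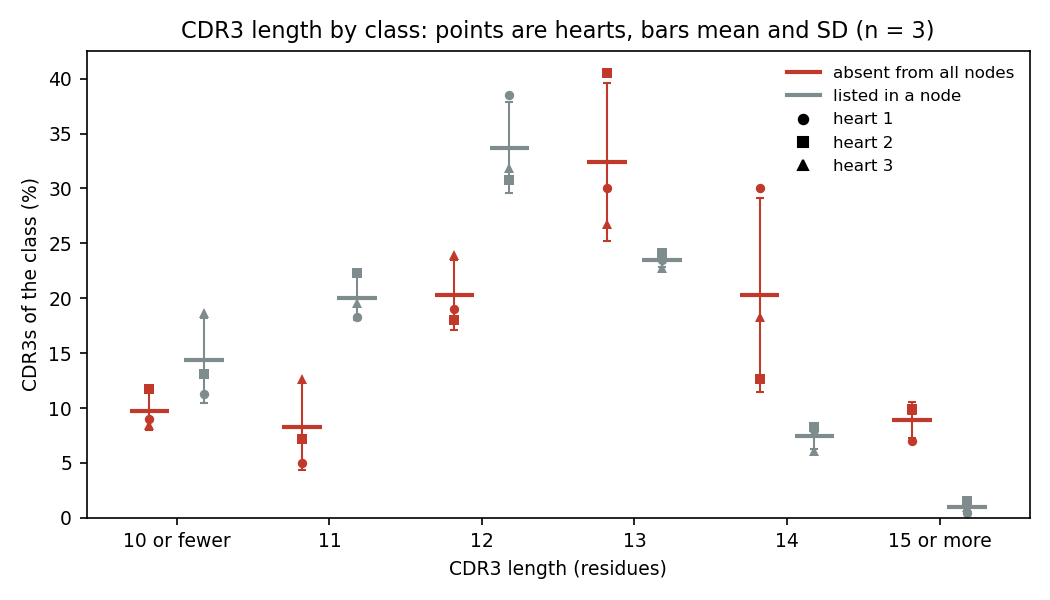
Share of the distinct CDR3s of each class, in percent, by CDR3 length in residues. Points are the 3 hearts, with circles for heart 1, squares for heart 2 and triangles for heart 3, and bars are mean and SD (n = 3), with node-absent CDR3s in red left of node-listed CDR3s in grey. Node-absent CDR3s stand higher from 13 residues on, at 8.92% against 0.991% for 15 or more residues, and lower at 11 and 12 residues.

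Read the other way, the share of heart CDR3s that no node listed was highest at the longest lengths. At 15 or more residues, 7 of 8, 11 of 16 and 14 of 18 CDR3s of hearts 1, 2 and 3 were node-absent, or 87.5%, 68.8% and 77.8%. At 14 residues the shares were 63.8%, 34.1% and 51.0%, and at 13 residues 37.5%, 36.3% and 29.0%. At 12 residues they were 18.8%, 16.5% and 20.7%, and at 11 residues 11.4%, 9.88% and 18.4%. Among CDR3s of 10 or fewer residues 27.3%, 23.2% and 13.6% were node-absent, so that in hearts 1 and 2 the shortest CDR3s were missing from the nodes more often than those of 11 residues, with overlapping Wilson intervals. The longest node-absent CDR3 had 17 residues and 4914 reads in heart 2, with TRBV13-2 and TRBJ1-4, and the 3 of 8 residues, ASGDSRLF, ASGEPEQY and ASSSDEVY, had 2191, 1975 and 1316.

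Each CDR3 was next divided into its parts. The start that matched the most common start of its TRBV segment and the end that matched the most common end of its TRBJ segment were counted, both taken from distinct node CDR3s, residue by residue while over 50% shared a residue. The stretch left between the matches was taken to stand for the part made by TRBD and added nucleotides. Germline sequences were not used, so this stretch can also hold residues that the TRBV or TRBJ segment encodes. In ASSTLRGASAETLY the matches are ASS and AETLY, which leaves 6 residues. In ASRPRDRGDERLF they are AS and ERLF, which leaves 7. The longest node-absent CDR3 has 9 residues left, the highest value of any CDR3 over the minimum. In ASGDSRLF 2 residues are left, while the node-listed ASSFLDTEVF, with TRBJ1-1 and its end TEVF, leaves 3.

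Node-absent CDR3s had the longer middle stretch in every heart. It averaged 5.16, 5.13 and 5.25 residues among node-absent CDR3s of hearts 1, 2 and 3, and 4.19, 4.16 and 3.97 among node-listed CDR3s. The hearts' values did not overlap. The mean difference was 1.07 ± 0.177 residues (SD, n = 3), higher in 3 of 3 hearts, with an exact two-sided sign-flip p of 0.25 and an adjusted p of 0.688 over the 11 features compared. The matching start was shorter by a small amount in 3 of 3 hearts, 3.03 ± 0.0628 residues for node-absent and 3.14 ± 0.0238 for node-listed CDR3s. The matching end was 4.5 ± 0.118 and 4.65 ± 0.0307 residues, shorter in 2 of 3 hearts. Both had the same adjusted p of 0.688 in the exact test.

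With 7 or more residues between the matches, 12 of 12, 13 of 18 and 16 of 23 CDR3s of hearts 1, 2 and 3 were node-absent, or 100%, 72.2% and 69.6%. At 6 residues the shares were 54.8%, 37.1% and 60.5%, at 5 residues 31.3%, 38.1% and 29.8%, and at 4 residues 18.7%, 17.1% and 16.7%. With 3 residues they were 17.0%, 6.41% and 9.26%, and with 2 or fewer 20%, 9.09% and 2.22% (3 of 15, 2 of 22 and 1 of 45 CDR3s). The lower end rests on few node-absent CDR3s, 6 in all at 2 or fewer residues.

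**Figure D3:**
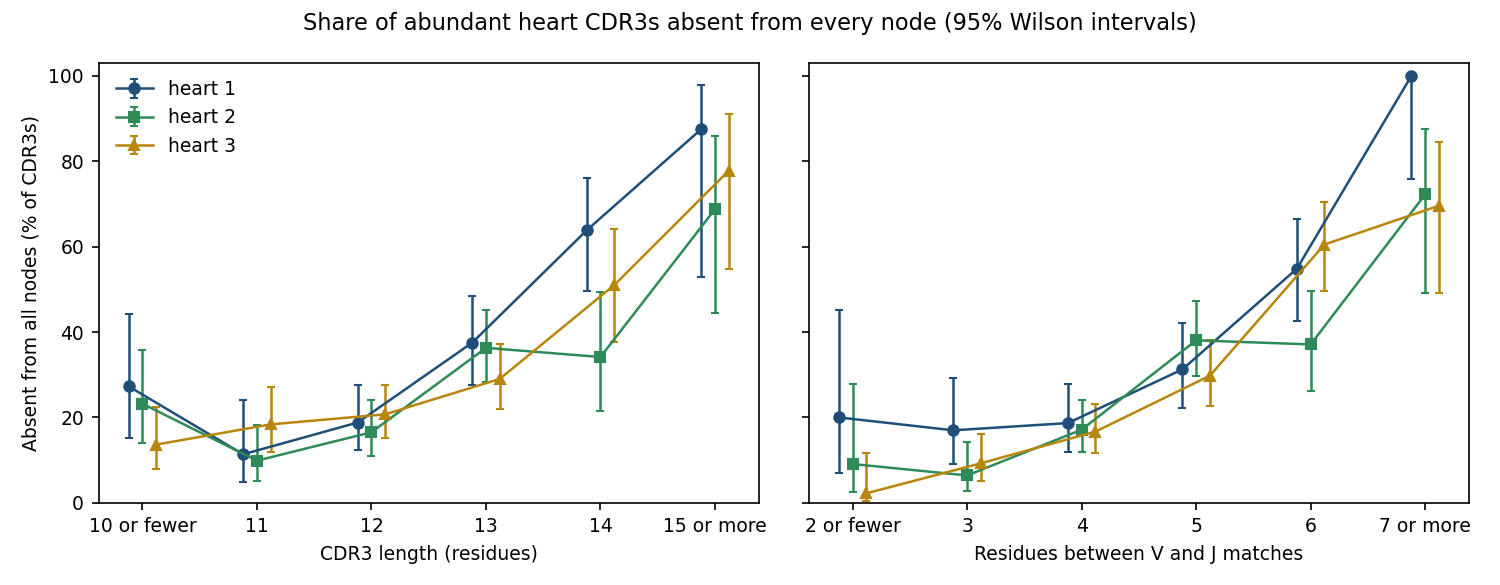
Share of heart CDR3s over the minimum that were node-absent, in percent, by CDR3 length in residues (left) and by residues between the TRBV and TRBJ matches (right). Lines are the 3 hearts and bars are 95% Wilson intervals, which cover counting error only. In heart 1 the share goes up to 87.5% at the longest lengths and to 100% at 7 or more residues between the matches.

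The difference in length was also present within TRBV segments, which differ in the number of residues they encode. Among the 6 segments with 30 or more node-absent CDR3s (TRBV1, TRBV5, TRBV13-2, TRBV19, TRBV20 and TRBV31), node-absent CDR3s were longer on average in 18 of 18 combinations of segment and heart, and their middle stretch was longer in 18 of 18. For TRBV19, node-absent CDR3s averaged 12.93, 12.08 and 13 residues in hearts 1, 2 and 3, and node-listed CDR3s 11.59, 11.59 and 11.73. For TRBV5, node-absent CDR3s averaged 13.08, 13.7 and 13.52 residues, and node-listed CDR3s 12.48, 12.76 and 12.35. By TRBJ segment, node-absent CDR3s were longer in 32 of 33 combinations with a heart, the exception being TRBJ2-2 in heart 3 (12.55 and 12.70 residues). Among clones of 1000 to under 5000 reads node-absent CDR3s were longer by 1.01, 0.83 and 0.70 residues in hearts 1, 2 and 3, and among clones of 5000 or more reads by 0.59, 0.54 and 0.99. These splits were chosen after the data were seen and carry no test.

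Among all heart CDR3s over the minimum, length also followed the number of node libraries that listed them, with node-absent CDR3s at one end. In heart 1 the mean was 12.83 residues for CDR3s in 0 nodes, 12.35 in 1 node, 12.05 in 2 to 4, 11.74 in 5 to 9 and 11.58 in 10 to 16. The means in heart 2 were 12.66, 12.37, 11.91, 11.84 and 11.71, and those in heart 3 were 12.61, 12.10, 11.93, 11.57 and 11.53, in the same order. The middle stretch also shortened at each step, and averaged 3.58, 3.80 and 3.46 residues for CDR3s in 10 to 16 nodes. Node listing chose the classes, so this order is a description. Node-listed CDR3s were in the MI node of the same number in 69.5%, 71.0% and 64.5% of cases in hearts 1, 2 and 3.

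**Figure D4:**
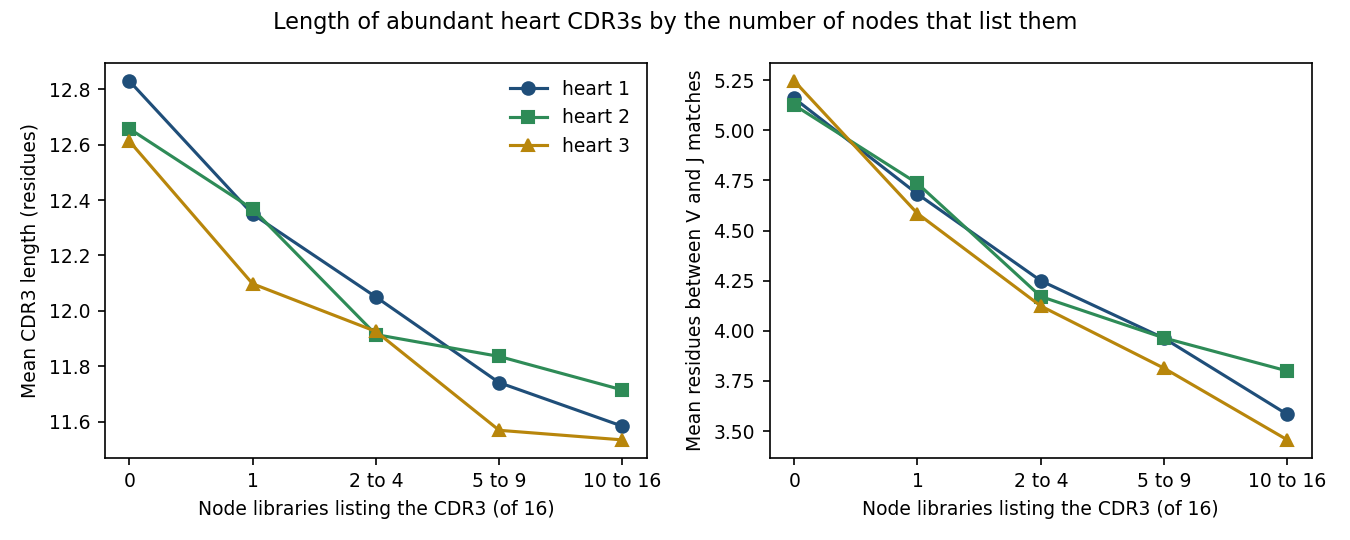
Mean CDR3 length (left) and mean residues between the TRBV and TRBJ matches (right) of heart CDR3s over the minimum, by the number of the 16 node libraries that listed them. Lines are the 3 hearts, and 0 stands for node-absent CDR3s. Each line is highest at 0 nodes, where heart 1 stands at 12.83 residues, and lowest at 10 to 16 nodes, where it stands at 11.58.

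TRBV usage was compared over distinct CDR3s, each counted once under the segment with most of its reads, so that clone size did not enter. TRBV13-2, a member of the Vβ8 family, was the segment most used by node-absent CDR3s over the hearts together (55 of 353), although in heart 3 TRBV5 was used by 21 and TRBV13-2 by 19. It made up 19.0%, 15.3% and 13.4% of node-absent CDR3s in hearts 1, 2 and 3, against 10.3%, 10.1% and 12.5% of node-listed CDR3s. The hearts' values did not overlap, but the difference did not pass in edgeR (log2 fold change 0.47, SE 0.244, adjusted p 0.330). TRBV13-1 showed the opposite order, also without overlap, at 4%, 6.31% and 7.04% of node-absent and 7.98%, 7.93% and 10.3% of node-listed CDR3s (log2 -0.57, SE 0.336). TRBV31 held 9%, 8.11% and 10.6% of node-absent and 7.51%, 5.49% and 6.62% of node-listed CDR3s, without overlap (log2 0.53, SE 0.316). TRBV13-3 held 2.68% ± 1.35 and 5.20% ± 0.866 (SD, n = 3), with overlap (log2 -0.89, SE 0.512). All 4 had an edgeR adjusted p of 0.330. Apart from TRBV13-2, TRBV13-1 and TRBV31, the hearts' values overlapped for every TRBV segment. Lack of overlap is a description and was not tested. When a node entry counted only with the same TRBV and TRBJ segments, the log2 fold changes were 0.04 for TRBV13-2, 0.0090 for TRBV31, 0.0063 for TRBV13-1 and 0.12 for TRBV13-3. Of 16 TRBV segments tested, edgeR called 0, 0% of those tested, with 0 at an unadjusted p under 0.05. DESeq2 also called 0, but its SE for TRBV13-2 was 0.662 against 0.244 in edgeR, so it could call less.

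The assignment of reads to TRBV13-1 or TRBV13-2 was itself divided within many clones. At least 10% of the reads carried another TRBV segment in 61 of 353 node-absent and 157 of 949 node-listed entries. In 55 of the 61 the pair was TRBV13-1 and TRBV13-2, for example in the longest node-absent CDR3, with 68.4% of its reads under TRBV13-2 and 29.7% under TRBV13-1. Counted as 1 segment, chosen after the data were seen, the pair held 23.0%, 21.6% and 20.4% of node-absent and 18.3%, 18% and 22.8% of node-listed CDR3s in hearts 1, 2 and 3. That order was not the same in each heart (edgeR log2 fold change 0.10, SE 0.197, adjusted p 0.764). The node-absent clones with most reads under TRBV13-2 were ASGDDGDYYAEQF, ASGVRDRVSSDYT and ASGGDRERKVF, all of heart 3, with 12613, 10185 and 9467 reads. Under TRBV31 the largest were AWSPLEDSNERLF and AWGANTEVF of heart 3 (21666 and 12479) and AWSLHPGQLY of heart 2 (9209). TRBV13-1 and TRBV13-3 gave node-absent clones of fewer reads, at most 8731 for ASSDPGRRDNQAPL and 6510 for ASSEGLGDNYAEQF, both of heart 3.

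No TRBJ segment passed the test either. TRBJ2-1, a segment of the downstream TRBJ2 cluster, was the most used over the hearts together, in 13, 22 and 22 node-absent CDR3s of hearts 1, 2 and 3, or 13%, 19.8% and 15.5%, against 9.86%, 14.3% and 10.5% of node-listed CDR3s. Its share was higher among node-absent CDR3s in 3 of 3 hearts, while the hearts' values overlapped (edgeR log2 fold change 0.48, SE 0.239, adjusted p 0.470). TRBJ2-2 held 13%, 7.21% and 7.75% of node-absent and 5.63%, 6.71% and 6.62% of node-listed CDR3s, without overlap (log2 0.48, SE 0.399, edgeR adjusted p 0.842). Without heart 1 its log2 fold change was 0.17. No other TRBJ segment was without overlap. In heart 1 TRBJ2-2 and TRBJ2-1 were used by 13 node-absent CDR3s each, and in heart 3 TRBJ2-7 was used by 23, against 22 for TRBJ2-1. TRBJ1-5 (log2 0.63) and TRBJ2-3 (-0.32) had the next smallest p, with the same edgeR adjusted p. Of 11 TRBJ segments edgeR called 0, 0% of those tested, with 1 (9.09%) at an unadjusted p under 0.05. DESeq2 also called 0, with an SE of 0.594 for TRBJ2-1 against 0.239 in edgeR. The largest node-absent clones with TRBJ2-2 were a CDR3 of 15 residues with TRBV1 of heart 3 (11446 reads) and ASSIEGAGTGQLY of heart 1 (10463), and with TRBJ1-5 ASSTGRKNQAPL of heart 3 (16949) and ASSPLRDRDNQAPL of heart 1 (11287). After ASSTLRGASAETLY, the largest with TRBJ2-3 were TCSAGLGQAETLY of heart 2 (27533) and a CDR3 of 15 residues with TRBV5 of heart 3 (16840).

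**Figure D5:**
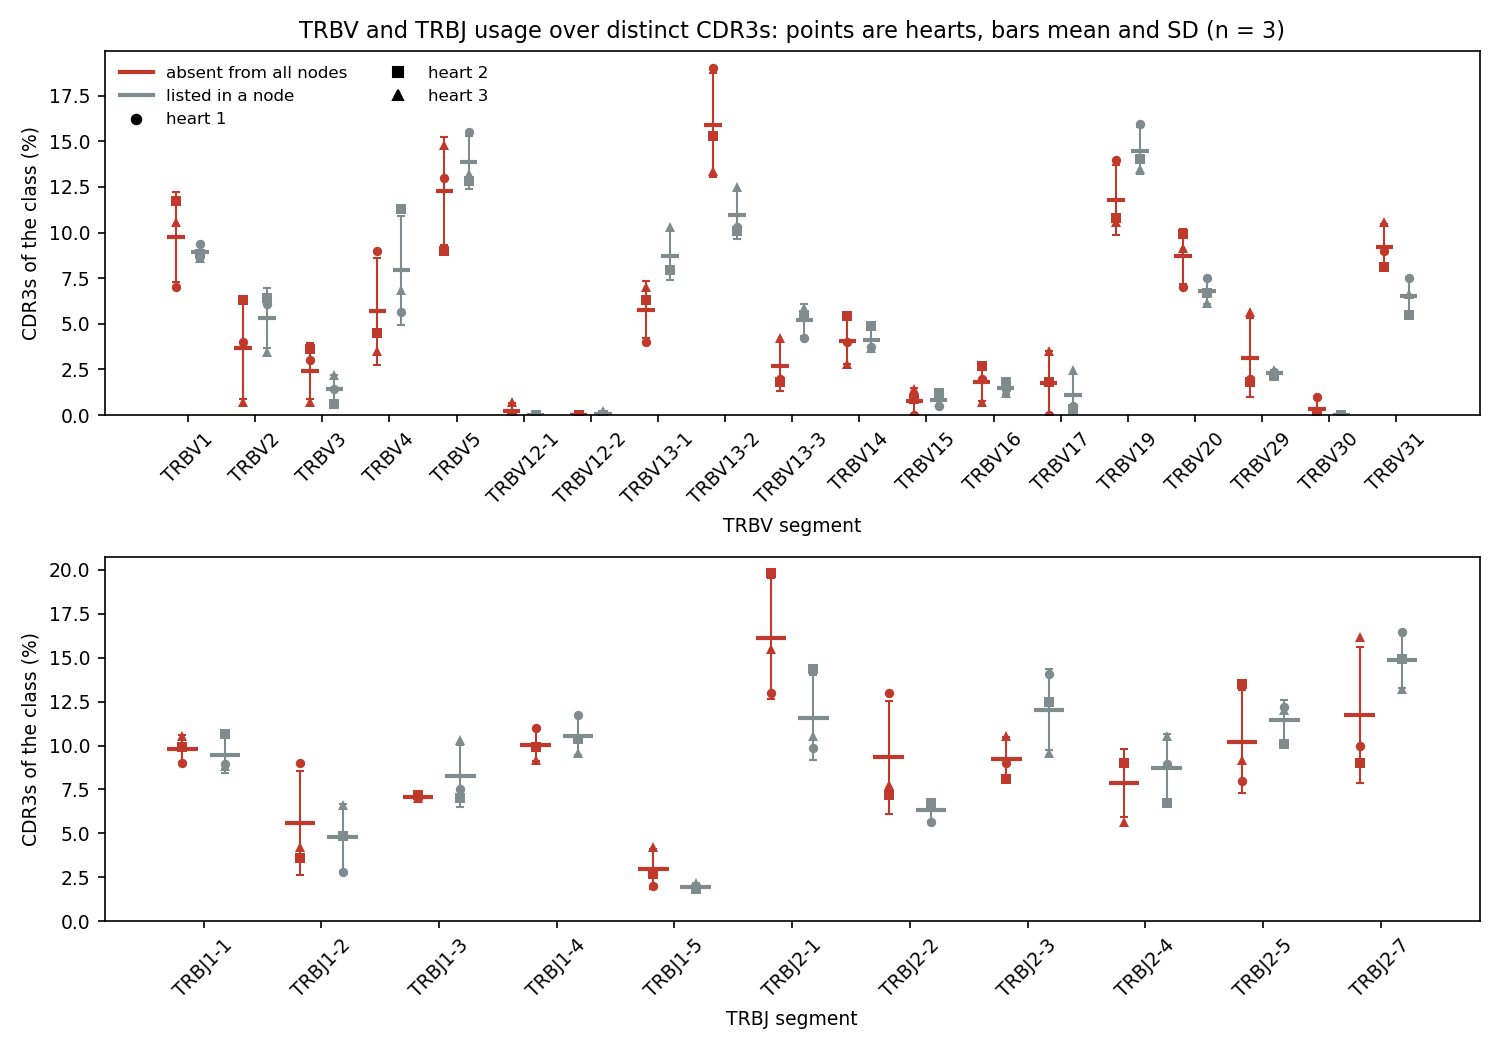
Share of the distinct CDR3s of each class, in percent, by TRBV segment (top) and TRBJ segment (bottom). Points are the 3 hearts and bars are mean and SD (n = 3), with node-absent CDR3s in red left of node-listed CDR3s in grey. TRBV13-2 stands at 13.4% to 19.0% among node-absent and 10.1% to 12.5% among node-listed CDR3s, and no segment passed in edgeR.

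Shares of 5 segment lists were compared next, with a test that 3 hearts are too few to pass. The TRBJ1 cluster was used by 35.5% ± 2.35 of node-absent and 35.0% ± 2.33 of node-listed CDR3s (SD, n = 3). TRBV1, TRBV29 and the TRBV13 family, the segments used most by invariant NKT cells, which a CD4+ TCRbeta+ gate can hold, were in 37.3% ± 3.43 and 36.1% ± 3.09. The 5 segments whose T cells are deleted by endogenous mammary tumor virus superantigens in this strain (TRBV12-1, TRBV12-2, TRBV15, TRBV16 and TRBV26) were in 2.81% ± 0.802 and 2.38% ± 0.604, higher in 3 of 3 hearts. That order rests on few CDR3s, 2, 4 and 4 node-absent and 4, 10 and 9 node-listed ones in hearts 1, 2 and 3. TRBV19, which encodes Vβ6, was in 11.8% ± 1.92 of node-absent and 14.5% ± 1.30 of node-listed CDR3s, lower in 3 of 3 hearts, and TRBV5, which encodes Vβ1, in 12.3% ± 2.96 and 13.8% ± 1.44. The exact sign-flip test gave adjusted p of 0.625 for the last 4 lists and 1.00 for the TRBJ1 cluster.

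Reads per clone differed by TRBV segment in both classes. Reads came from a multiplex PCR with V-segment primers, so amplification and clone size cannot be told apart between segments. Only 14 of the 353 node-absent CDR3s used TRBV14, and their median was 27817 reads. TRBV19 was used by 41, with a median of 12845 reads. The median of node-absent CDR3s with any other segment was 2933, 3446 and 4237 reads in hearts 1, 2 and 3, against 3496, 3651.5 and 3611.5 for node-listed CDR3s. TRBV14 took 15.7%, 38.1% and 8.33% of node-absent reads, against 11.3%, 14.3% and 19.0% of node-listed reads, so that the order turned in heart 3. TRBV19 took 35.0%, 18.7% and 24.4% of node-absent reads, against 38.0%, 37.0% and 32.6% of node-listed reads, lower in each heart. Node-listed CDR3s with TRBV14 and TRBV19 had medians of 25770 and 18172 reads, above their medians for other segments as well.

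Combinations of segments were spread widely. The 353 node-absent CDR3s used 124 TRBV and TRBJ combinations. The most frequent was TRBV13-2 with TRBJ2-3, in 10 node-absent CDR3s (3, 4 and 3 in hearts 1, 2 and 3) and in 12 node-listed entries, followed by TRBV19 with TRBJ1-4, in 9 and 13. No combination was therefore used by more than 10 of the 353.

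The residues of the CDR3 centre, taken from position 5 to the residue before the last 5, were counted over distinct CDR3s. Leucine made up 4.16%, 4.93% and 5.84% of the centre residues of node-absent CDR3s in hearts 1, 2 and 3, against 2.52%, 3.41% and 3.54% for node-listed CDR3s. These values did not overlap, and the difference had the smallest p without passing in edgeR (log2 fold change 0.65, SE 0.237, adjusted p 0.110). Values of arginine, glycine, serine and threonine did not overlap either, while those of every other residue did. Lack of overlap was not tested. Counted between the TRBV and TRBJ matches, leucine had a log2 fold change of 0.21 (edgeR adjusted p 0.466). Arginine made up 9.99% ± 0.224 and 7.58% ± 1.04 (log2 0.38, SE 0.174), glutamate 3.41% ± 1.11 and 2.20% ± 0.0209 (log2 0.58, SE 0.291), and glycine, the residue that TRBD segments encode most, 29.6% ± 0.858 and 33.3% ± 1.59 (log2 -0.17, SE 0.0869), each with an edgeR adjusted p of 0.222. Of 19 residues tested edgeR called 0, 0% of those tested, with 4 (21.1%) at an unadjusted p under 0.05. DESeq2 also called 0, with an SE of 0.524 for glycine against 0.0869 in edgeR. The centre of a longer CDR3 holds more residues, and counts ran from 385 to 514 residues per heart for node-absent CDR3s and from 635 to 1131 for node-listed CDR3s.

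Motifs read from the TRBD segments were compared as shares of CDR3s that hold them. DWG, a reading of TRBD2, was in 0, 1 and 4 node-absent CDR3s of hearts 1, 2 and 3, or 1.24% ± 1.44, against 7, 10 and 12 node-listed CDR3s, or 3.09% ± 0.177, lower in 3 of 3 hearts. In heart 3 the shares were nearly equal, at 2.82% of node-absent and 2.94% of node-listed CDR3s. GLG, another reading of TRBD2, was in 3.88% ± 1.12 of node-absent and 3.0% ± 0.378 of node-listed CDR3s. GTG, which both TRBD segments can give, was in 8.46% ± 3.31 of node-absent and 6.81% ± 1.23 of node-listed CDR3s. The TRBD1 reading GQG was in 4.78% ± 0.715 of node-absent and 4.47% ± 0.749 of node-listed CDR3s, and DRG, also of TRBD1, in 3.94% ± 2.67 and 3.43% ± 0.862. None of the shares of GLG, GTG, GQG and DRG was on the same side in all hearts. A pair of adjacent glycines was in the centre of 20.5% ± 1.29 of node-absent and 19.2% ± 1.58 of node-listed CDR3s, and a pair of hydrophobic residues at positions 6 and 7 in 1.00% ± 1.06 and 0.991% ± 0.528. Net charge of the centre averaged 0.0558 ± 0.0494 for node-absent and -0.0298 ± 0.00619 for node-listed CDR3s, higher in 3 of 3 hearts. In the exact sign-flip test the adjusted p ran from 0.688 to 1.00 over these features, and 3 hearts cannot give a smaller p than 0.25 before adjustment.

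Near relatives in sequence were counted last. Of 353 node-absent CDR3s, 0 stood 1 substitution from a CDR3 of the same heart with the same TRBV and TRBJ segments and 20 or more times the reads, against 4 of 949 node-listed entries. Most node-absent CDR3s had relatives of the same length at 1 substitution in the nodes, of any segment, but fewer of them. The median number was 5, 5 and 4.5 in hearts 1, 2 and 3, against 29, 30.5 and 32 for node-listed CDR3s. At the same length of 12 residues the medians were 8, 3 and 6, against 31, 33 and 40. No relative at all was found in any node for 65 of 353 node-absent CDR3s, among them AKPGHNERLF with 104532 reads, and for 10 of 949 node-listed entries. Node lists chose the classes, so these counts carry no test.

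Between hearts, 0 pairs of node-absent CDR3s stood 1 substitution apart. Within a heart there were 4 such pairs, named after their values were seen, with positions counted from 1 at the start of the printed CDR3. In heart 2, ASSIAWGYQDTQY with 10926 reads and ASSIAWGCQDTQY with 2746 differed by Y8C, both with TRBV19 and TRBJ2-5. A pair of 15 residues with TRBV29 and TRBJ1-1, of 6008 and 1147 reads, differed by S3N in the same heart. In heart 1, ASCRNWGGVAETLY with 1946 reads and ASCRNWGGDAETLY with 1366 differed by V9D, both with TRBV13-2 and TRBJ2-3. The pair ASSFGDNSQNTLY with 9675 reads and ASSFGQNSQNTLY with 1620 differed by D6Q and used TRBV14 and TRBV3, with TRBJ2-4 in both.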

How the data were processed

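TRB transcripts of sorted CD4+ T cells were amplified by multiplex PCR with V-segment primers and sequenced on an Illumina HiSeq, per the labels' protocols. The deposited lists give whole-number read counts for each CDR3, TRBV and TRBJ combination, not normalised. Lowest listed counts were 2, and the tools for read mapping and error correction and a genome build were not given in the sources used here, so no coordinates are printed. All 30 segments of the heart CDR3s over the minimum matched a RefSeq gene name.

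Reads were summed per CDR3 and library. The heart CDR3s, the lists and the tests were chosen with earlier results of these data known. Distinct CDR3s per segment and centre residues were compared with edgeR 4.0.16 in R 4.3.3 (glmQLFit, robust, legacy settings), with the class total as offset, segments with under 10 CDR3s left out and Benjamini-Hochberg adjustment at 0.05. Both classes of a heart come from the same library, so the heart was a block. Means were compared by exact sign flips over 3 hearts (Python 3.11.15, scipy 1.17.1), and DESeq2 1.42.0 was an alternative. DESeq2 had wider standard errors and was not run on simulated data, so its lack of calls adds no separate evidence. In simulated data with 3-fold changes edgeR recovered 64.5% for TRBV, 80.5% for TRBJ and 78% for residues. It called 1.33%, 3.71% and 4.4% of the unchanged ones. Counts were drawn from the node-listed shares of each heart, with the same change in every heart, so real data that vary more may be recovered less. Length classes were not simulated.

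Named segments and residues are those past the threshold or else the 4 with the smallest p. Named CDR3s are the 5 largest node-absent clones of each heart, those in several hearts, the longest and shortest, 3 on each side of the read minimum, up to 3 of the largest for each named segment, and the largest and the least node-supported node-listed CDR3s.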

Additional observations from a re-analysis of the deposited data

How the results depend on the processing

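Over 532 combinations of a result and an alternative, 482 were counted as unchanged. For a fold change this meant the same direction and side of the threshold, and for a mean difference the same direction. A number of calls was counted as unchanged if equal or close, as with 5 length classes in place of 4. The length difference stayed between 0.636 and 0.872 residues and that of the middle stretch between 0.907 and 1.12, each over 11 settings (minimum of 500 or 2000 reads or 0.04% of the library, under 10 reads in each node, absence from the 3 MI nodes alone, matching with TRBV and TRBJ, near relatives left out, weighting by reads, and each heart left out). Without the replicate block that pairs the classes of a heart, edgeR called 0 TRBV segments, 0 TRBJ segments, 0 residues and 5 length classes. With each heart left out in turn it called from 1 to 4 length classes. The class of 13 residues also passed with 0.04% of the library (adjusted p 0.0487), under 10 node reads (0.0417), the MI nodes alone (0.0334), TRBV and TRBJ matching (0.0347) and no replicate block (0.0326), which gave 5 length classes each. Among segments and residues a call appeared that the main setting lacked: 1 TRBV segment when up to 9 reads per node counted as absence (TRBV13-2, log2 0.73, adjusted p 0.0261), 1 TRBJ segment without legacy settings (TRBJ2-1, 0.48, adjusted p 0.0334), and 3 residues with TMM factors (glycine, serine and threonine, lower), 1 without legacy settings (leucine, 0.66) and 1 between the matches (histidine, 1.33). With reads in place of distinct CDR3s edgeR also called TRBJ2-1 (log2 0.92). Heart reads helped to choose the classes, so that call is a description and carries no test. Between the matches, log2 fold changes were 0.21 for leucine and 0.16 for arginine, against the reported 0.65 and 0.38. Matching with TRBV and TRBJ left log2 fold changes of 0.04 for TRBV13-2 and 0.0090 for TRBV31, against the reported 0.47 and 0.53. Directions turned: with that matching, TRBV13-1 (0.00626), TRBV13-3 (0.124), hydrophobic pair (-0.394), GQG (-0.334) and TRBJ1 cluster (-0.332); with 2000 reads, hydrophobic pair (-0.0104), GQG (-0.225), DRG (-0.0625), TRBJ1 cluster (-0.276) and superantigen-deleted segments (-0.147); with under 10 node reads, DRG (-0.0788) and superantigen-deleted segments (-0.183); with the MI nodes alone, GQG (-0.351) and DRG (-0.109). NKT-associated segments turned with 500 reads (-0.361) and the TRBJ1 cluster with 0.04% (-0.254). Weighting by reads turned the hydrophobic pair (-0.853), GQG (-2.08), TRBJ1 cluster (-1.63) and superantigen-deleted segments (-1.19), and turned TRBJ2-2 (-0.12). Over the hearts left out in turn, the difference ran from -1.32 to 1.92 for DRG and from -1.86 to 1.86 for the TRBJ1 cluster, lowest without heart 1, and from -0.546 to 0.331 for the hydrophobic pair and from -0.166 to 1.04 for GQG, lowest without heart 3. Among CDR3s of 11 residues or fewer TRBJ2-1 (-0.00209) and TRBJ1-5 (-0.74) turned. The causes were not tested. With 3 hearts the exact test cannot pass, and edgeR missed part of the simulated 3-fold changes, so differences of the observed size in segments may go uncalled.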

Other observations

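Most CDR3s that the heart libraries listed had few reads and were seldom in a node. With 485 to 1025 reads per sorted cell, entries under 100 reads would stand for less than a cell if reads followed cells. Whether such entries are errors made from larger clones was not tested. Of 7387 entries of a heart and a CDR3 with 2 to 9 reads, 76.9% were listed in no node, as were 69.2% of 2760 entries with 10 to under 100 reads and 39.5% of 397 with 100 to under 1000 reads. In the range of 1000 to under 2000 reads the share was 28.2% of 266 entries.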
